A study of Homo sapiens with 4 samples.

Results

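Endothelium and blood arise side by side in the embryo from mesoderm, and 9 genes used by those lineages were followed here in single-cell RNA of human blastoids: KDR, CALCRL, CD34, ESAM, LMO2, HHEX, MEF2C, RASGRP3 and TMEM88. They are 9 of the 23364 genes listed in at least 1 of the study's 4 tables, and they were picked because earlier results of these data had shown them in blastoid cells. Their levels, their detection and their co-detection in blastoid cells are therefore a description, and nothing is supported with them. In blastoids, KDR was found in 31.8% and 23.9% of the cells of the 2 samples and TMEM88 in 54.4% and 58.9%, while CD34, ESAM, HHEX, LMO2 and RASGRP3 were each found in at most 1.44% of cells. Most of the UMIs of CD34 and ESAM lay in 14 cells that held 5 or more of the 9 genes. These cells were chosen by the same genes, so this concentration follows in part from the choice.

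The study measured RNA in single cells of the established embryonic stem cell line KhES1 and of blastoids, which are stem cell aggregates grown to resemble a blastocyst. Samples hESC 1 and hESC 2 were KhES1 cells kept on Matrigel in mTeSR-1 medium, with 10 µM Y27632, a ROCK inhibitor, on day 1. Samples blastoid 3 and blastoid 4 came from KhES1 aggregates formed for 24 h with 10 µM Y27632, embedded in a PNIPAAm and PEG hydrogel under medium with 10% FBS for 3 days, and then kept in iBlastoid medium. The libraries were made with the 10x Genomics Chromium 3′ kit. No allele or genetic change is named for either group. All samples come from 1 cell line, and nothing says that samples of a group came from separate cultures. The p-values of blastoids against hESC therefore measure the spread between these samples, which may be technical. Tests between sets of blastoid cells took the sample as a block, except where stated. Their p-values measure how alike the difference was in the 2 blastoid libraries, and not the spread between samples. The sources used here do not agree on the day at which blastoids were taken, so no day is given.

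A cell was a barcode with at least 500 detected genes, which gave 2265, 3175, 2289 and 1951 cells in hESC 1, hESC 2, blastoid 3 and blastoid 4. A unique molecular identifier (UMI) tags 1 captured RNA molecule, and the median cell held 5793, 4996, 6232 and 8828 UMIs in the same order. The blastoid libraries shared 1035 barcodes, but no shared barcode was a cell in both of them. The hESC libraries shared 1317 barcodes, 23 of which were cells in both. Scrublet called 0.754% of the cells doublets, and these were kept in the values below. Where a table does not list a gene, its counts were set to 0, as for ESAM in hESC 1, and 0 counts there allow up to 0.222 CPM. Levels are given as CPM, the UMIs of a gene scaled to 1e+06 UMIs of the sample, and are compared within a gene and not between genes.

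KDR encodes a receptor for VEGF, the growth factor that drives endothelial growth, and marks the mesoderm from which endothelium and blood form. LMO2 is a bridging protein in the transcription complexes of TAL1 and GATA factors, and it is needed for the first blood cells. MEF2C and HHEX are transcription factors of the heart and vessels and of early endoderm and endothelium, and CD34 and ESAM are surface proteins of endothelium and blood progenitors.

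The stretches before the starts of KDR, MEF2C, HHEX and RASGRP3 are shown for the letters that ETS and GATA factors are known to read. These are the genes with a start that met the rule for printing below, and their detection in cells had no part in the choice. The starts of CD34 and CALCRL had 0 and 42 bases outside exons and did not meet it. RefSeq's promoter table (GRCh38.p14) holds 6 of the 9 genes with 15 starts, and the 250 bases before each start were searched on both strands. For each gene the first start with at least 200 of these bases outside exons is printed, 5′ to 3′ on the gene's strand and without the exonic bases. Capitals mark an ETS run (GGAAG, or CTTCC on the other strand) and a GATA run (GATAA, or TTATC). Other forms of these sites, such as GGAA before a letter other than G, were not searched.
KDR start 1, chr4:55125596-55125845 (minus strand): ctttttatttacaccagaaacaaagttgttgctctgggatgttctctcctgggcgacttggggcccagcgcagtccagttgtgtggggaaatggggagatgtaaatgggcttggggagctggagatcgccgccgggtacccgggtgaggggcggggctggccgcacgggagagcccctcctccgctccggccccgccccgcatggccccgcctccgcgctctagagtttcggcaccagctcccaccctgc
HHEX start 1, chr10:92689705-92689950 (plus strand): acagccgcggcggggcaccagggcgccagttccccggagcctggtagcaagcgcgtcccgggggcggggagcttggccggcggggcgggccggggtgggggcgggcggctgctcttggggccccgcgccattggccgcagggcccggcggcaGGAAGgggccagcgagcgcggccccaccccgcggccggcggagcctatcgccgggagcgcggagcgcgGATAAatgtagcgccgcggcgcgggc
MEF2C start 2, chr5:88785543-88785761 (minus strand): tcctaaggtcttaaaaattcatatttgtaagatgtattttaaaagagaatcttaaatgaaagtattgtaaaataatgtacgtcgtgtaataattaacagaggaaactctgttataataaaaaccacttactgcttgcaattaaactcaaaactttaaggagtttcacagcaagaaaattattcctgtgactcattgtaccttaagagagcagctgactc
RASGRP3 start 1, chr2:33436098-33436323 (plus strand): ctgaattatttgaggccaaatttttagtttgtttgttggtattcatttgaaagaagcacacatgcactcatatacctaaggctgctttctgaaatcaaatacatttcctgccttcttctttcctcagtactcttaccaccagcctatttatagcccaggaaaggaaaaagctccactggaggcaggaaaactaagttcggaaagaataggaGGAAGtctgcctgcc
The ETS run lay before 8 of the 15 starts, against 65.1% of all 35116 starts in the table, and the GATA run before 6 of the 15, against 20.4%. In the printed stretches HHEX held both runs and RASGRP3 held the ETS run. KDR and MEF2C held neither run, although both stretches hold GGAA before another letter. The starts of a gene differed, as the ETS run lay before 4 of the 7 MEF2C starts and the GATA run before 3, and RASGRP3 held the GATA run before 2 of its 4 starts. A match is a run of letters, and binding was not measured.

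Among the receptors and surface proteins, KDR was found in every sample. KDR (chr4:55078259-55125595, minus strand, GRCh38) was at 53.1 and 49.8 CPM in hESC 1 and 2 and at 119 and 70.0 CPM in blastoid 3 and 4. Both blastoid samples were above both hESC samples, but they differed from each other by more than the lower of them differed from the stem cells. The share of cells with a KDR UMI was 23.1% and 18.5% in hESC and 31.8% and 23.9% in blastoids. When each cell was thinned to 2000 UMIs, with shallower cells left out (435 and 973 hESC cells, 108 and 42 blastoid cells), the shares were 10.3% and 8.99% against 17.3% and 9.48%, and blastoid 4 lay within the hESC range. CALCRL (chr2:187343129-187448460, minus strand), the receptor that binds adrenomedullin together with a RAMP protein, was at 1.56 and 0.943 CPM in hESC and at 7.49 and 5.90 CPM in blastoids, with no overlap. It was found in 0.927% and 0.441% of hESC cells and in 3.67% and 4.82% of blastoid cells.

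CD34 and ESAM were rare in every sample. CD34 (chr1:207880972-207911402, minus strand), a sialomucin on the surface of blood progenitors and endothelium, was at 0.445 and 0.189 CPM in hESC and at 0.854 and 1.21 CPM in blastoids. That is 9 UMIs over all hESC cells and 35 over all blastoid cells, and the groups did not overlap. ESAM (chr11:124752583-124762290, minus strand), an adhesion protein of endothelial junctions, had no counts in hESC 1, where it is not listed, and was at 0.189 CPM in hESC 2. It was at 0.657 and 1.16 CPM in the blastoids. With 3 UMIs in hESC and 31 in blastoids, the ratio of its levels was 9.11 (exact 95% counting interval 2.84 to 46.5).

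Of the transcription factors, MEF2C (chr5:88717117-88904257, minus strand), a factor of heart and vessel development, was at 1.19 and 1.32 CPM in hESC and at 8.14 and 8.38 CPM in blastoids. The spread within each group was small beside the gap. MEF2C was found in 0.662% and 0.661% of hESC cells and in 4.85% and 5.43% of blastoid cells. LMO2 (chr11:33858576-33892289, minus strand) was at 1.93 and 1.13 CPM in hESC and at 4.07 and 2.59 CPM in blastoids, although the share of cells with a UMI overlapped, at 1.10% and 0.567% against 1.05% and 1.44%. In blastoid 3, 24 of its 62 UMIs (38.7%) came from 2 cells, and without them its level there was 2.50 CPM. HHEX (chr10:92689951-92695646, plus strand), a homeobox factor of early endoderm and of blood and vessel precursors, was at 1.48 and 2.33 CPM in hESC and at 0.394 and 2.04 CPM in blastoids. Blastoid 3 was the lowest of the 4 samples and blastoid 4 lay between the hESC samples.

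The signalling genes were RASGRP3 and TMEM88. RASGRP3 (chr2:33436324-33564750, plus strand), which loads RAS proteins with GTP in response to diacylglycerol, was at 0.741 and 0.126 CPM in hESC and at 1.44 and 1.43 CPM in blastoids. The stem cell samples were both lower, and far apart from each other. TMEM88 (chr17:7855065-7856099, plus strand), a membrane protein that binds Dishevelled and dampens WNT signalling in heart-forming mesoderm, was at 3.56 and 3.02 CPM in hESC and at 301 and 364 CPM in blastoids. It was found in 2.12% and 1.45% of hESC cells and in 54.4% and 58.9% of blastoid cells, and in 37.6% and 37.9% of blastoid cells after thinning. Of the 9 genes, 7 overlap an annotated gene on the opposite strand, and whether strand was used in counting is not given in the sources used here, whereas HHEX and TMEM88 overlap none.

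**Figure D1:**
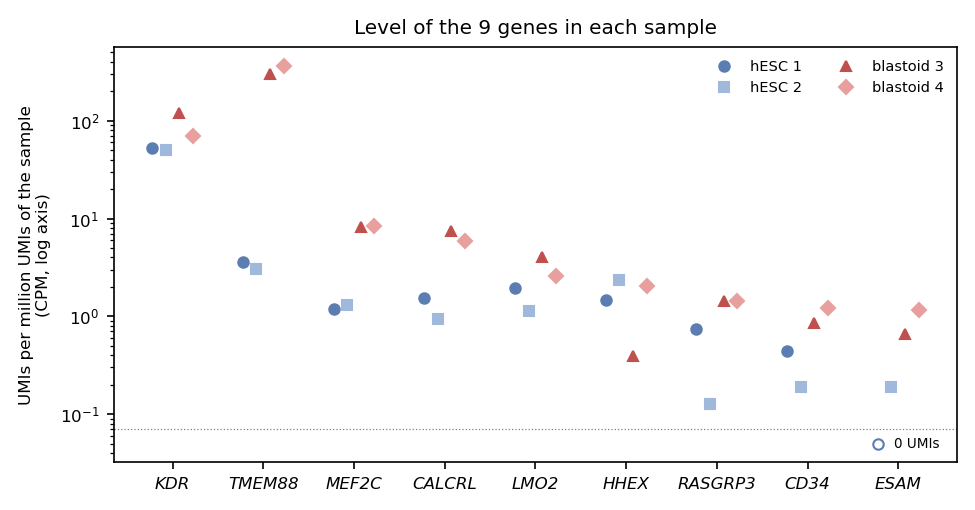
Level of each gene (CPM, log axis) in hESC 1, hESC 2, blastoid 3 and blastoid 4, with 1 point per sample and a separate line for 0 UMIs. TMEM88 stands near 3 CPM in the hESC samples and at 301 and 364 CPM in the blastoids, and HHEX is the gene whose lowest value, 0.394 CPM, is in a blastoid sample.

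The edgeR quasi-likelihood test on sums per sample, adjusted over 16368 genes, called 6 of the 9 genes higher in blastoids and 0 lower at an adjusted p under 0.05, with 0 lower also at an unadjusted p under 0.05 and by DESeq2. In such sums, more cells with a gene and more RNA per cell cannot be told apart. It called 50.3% of all genes (27.3% higher and 23% lower), and since the genes were picked on this contrast nothing is read from the count. The log2 fold change was 6.54 (SE 0.22, adjusted p = 3.21e-06) for TMEM88, 2.58 (SE 0.25, adjusted p = 0.000191) for MEF2C and 2.29 (SE 0.32, adjusted p = 0.000896) for CALCRL. It was 0.73 (SE 0.21, adjusted p = 0.0234) for KDR, 1.61 (SE 0.56, adjusted p = 0.0467) for CD34 and 2.97 (SE 0.86, adjusted p = 0.0226) for ESAM. LMO2 (0.99, adjusted p = 0.0606), RASGRP3 (1.65, adjusted p = 0.0640) and HHEX (-0.72, adjusted p = 0.385) did not pass. DESeq2 called KDR, MEF2C, CALCRL and TMEM88, which is 4 of the 9, beside 40.7% of all genes (21.6% higher and 19% lower). KDR did not pass without hESC 1 (adjusted p = 0.104) or hESC 2 (adjusted p = 0.132), CD34 did not pass without the doublet calls (0.0568), hESC 1 (0.112), hESC 2 (0.366) or blastoid 4 (0.185), and ESAM did not pass without hESC 1 (0.161). RASGRP3 was at 3.34 without hESC 1 (adjusted p = 0.0320) and at 0.80 without hESC 2 (0.399), and passed without blastoid 3 (0.0282) as well. LMO2 passed without blastoid 4 (1.22, adjusted p = 0.00392). RASGRP3 and LMO2 both passed with no filter (0.0279 and 0.0207) and without TMM (0.0477 and 0.0414), and RASGRP3 also with all barcodes (0.0360) and with at least 1000 genes a cell (0.0474). Without hESC 2 no hESC UMI of ESAM is left, so no fold is given for it (adjusted p = 0.0319). HHEX was at 0.015 without blastoid 3 and at -2.47 (adjusted p = 0.00109) without blastoid 4. The median over all genes was 0.05, and 1.65 over the 9.

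The partners of these genes were taken from 8 lists with 98 genes, which were also chosen with earlier results known. Of them 68 were tested, 32 passed as higher in blastoids and 16 as lower. The median log2 fold change over the 68 was 0.68, against 0.05 over all genes. Rises and falls in the lists are log2 fold changes with adjusted p under 0.05 in the same edgeR fit. Genes described as having no counts in hESC are those not listed in the hESC tables.

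In the VEGF list, 5 of 8 genes were higher and 2 lower. NRP1, a co-receptor of KDR, had no counts in hESC and was at 80.2 and 54.6 CPM in blastoids. The ligands PGF (log2 fold change 3.71) and VEGFC (3.31) were higher, and FLT4, the receptor of VEGFC in lymphatic vessels, was lower (-1.54). FLT1, a receptor of VEGF and PGF, was also lower, at 83.6 and 88.5 CPM in hESC and 41.6 and 24.4 CPM in blastoids (-1.53, adjusted p = 0.000915). In the adrenomedullin list around CALCRL, 2 of 7 tested genes were higher and 4 lower. ADM, the ligand adrenomedullin, fell by 2.18 on the log2 scale from 35.1 and 31.2 CPM to 6.37 and 9.48 CPM, and ADM2 fell by 3.09. RAMP2, the partner of CALCRL for adrenomedullin, was at 17.2 and 16.5 CPM in hESC and at 9.98 in both blastoids (-0.89, adjusted p = 0.00284). RAMP1, which turns CALCRL into a receptor for the peptide CGRP, rose by 3.68, and ACKR3, a receptor that takes up adrenomedullin, rose from 0 and 0.189 CPM to 21.4 and 37.5 CPM.

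In the list of LMO2 partners and blood transcription factors, 3 of 7 tested genes were higher and 1 lower. GATA2, a factor of blood progenitors that is also made by trophectoderm and amnion, had no counts in hESC and was at 17.7 and 18.9 CPM in blastoids. RUNX1, a factor of definitive blood formation, was higher by 5.18 (adjusted p = 0.000159). KLF1, a red cell factor, rose from 0.593 and 0.251 CPM to 1.97 and 1.93 CPM (2.09, adjusted p = 0.00831), and TCF3 was lower by 0.56 (log2 fold change -0.56). In the list of ETS, SOX and MEF2 factors, 5 of 10 tested genes were higher and 1 lower. FLI1, an ETS factor of endothelium and blood, had no counts in hESC and was at 1.90 and 2.70 CPM in blastoids. SOX7 was higher by 3.89, while ERG, another ETS factor of endothelium, was at 2.30 and 3.14 CPM in hESC and at 0.788 and 0.992 CPM in blastoids (log2 fold change -1.72, adjusted p = 0.00577).

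In the list of endothelial surface genes, 5 of 14 tested genes were higher and 3 lower, with a median of -0.03. APLNR, the apelin receptor, had no counts in hESC and was at 33.8 and 16.2 CPM in blastoids, whereas its ligand APLN went from 16 and 20 UMIs to 0 in both blastoids. TEK, the angiopoietin receptor, was higher by 3.90. The RAS and WNT relatives held 1 higher (DVL2, 0.71) and 2 lower genes (RASGRP2, -3.01, and RASGRP1, -0.72) of 6 tested. In the list of globin, red cell and leukocyte genes, 0 of 4 tested genes were higher by edgeR (1 at an unadjusted p under 0.05, 0 by DESeq2) and 3 were lower, namely AHSP (-4.13), ITGA2B (-1.48) and KIT (-1.15). SPN, a sialoglycoprotein of leukocytes, was at 2.10 and 1.71 CPM in blastoids against 1.04 and 0.754 CPM in hESC (0.96, adjusted p = 0.0655). Embryonic globin HBZ had 3 and 4 UMIs in the blastoids and the leukocyte gene PTPRC had 0 and 1, while ITGA2B still had 37 and 38 and KIT 129 and 85. The 12 tested genes of the cardiac mesoderm list had 11 higher and 0 lower (0 lower at an unadjusted p under 0.05 and by DESeq2), and HAND1 had no counts in hESC and was at 709 and 809 CPM in blastoids.

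To see where in the blastoids the genes were found, cells of all samples were clustered without the 9 genes and without the genes of the 8 lists. Clusters 3, 4, 11 and 12 together held 1720 and 1169 cells of blastoid 3 and 4, and each detected 17 or 18 of 21 markers of mesoderm and mesenchyme. Clusters 6 and 9 held 438 and 658 cells and detected 17 and 18 of 19 markers of trophectoderm and amnion. The clusters are called by number, because cluster 3 had the pericyte gene RGS5 and none of its own class's markers among its leading genes. They were built from other genes of the same cells, so the tests between them describe how sharply the clusters differ.

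KDR was found in 37.2% and 31.3% of the cells of clusters 3, 4, 11 and 12 in blastoid 3 and 4, and in 5.02% and 6.53% of the cells of clusters 6 and 9. The median cell held 6106 and 8388 UMIs in the former and 6347.5 and 9079.5 in the latter, so the lower shares were in the deeper cells. In CPM this was 146 and 99.6 against 10.1 and 8.50, with no overlap (log2 fold change 3.54, SE 0.13, adjusted p = 1.24e-17, edgeR with the sample as a block). TMEM88 was found in 67.7% and 85.9% of cells against 12.3% and 19.3%, at 402 and 622 CPM against 28.1 and 32.8 CPM (3.96, SE 0.09, adjusted p = 4.82e-22). Free RNA can put UMIs of abundant genes into any droplet, and its part in the shares of clusters 6 and 9 was not tested. MEF2C was higher in the first set by 2.76 (SE 0.33, adjusted p = 1.27e-07) and CALCRL by 1.20 (SE 0.29, adjusted p = 0.00130).

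RASGRP3 had 18 and 16 UMIs in clusters 3, 4, 11 and 12 and 0 in clusters 6 and 9, which is at least 4.96-fold higher against a floor of 3 UMIs over both samples (adjusted p = 0.000735). CD34 had 13 and 15 UMIs there and 0 in clusters 6 and 9, at least 4.09-fold higher, and was not tested. Many of these UMIs lay in few cells that held 5 or more of the 9 genes. In blastoid 3, 4 such cells held 9 of the 13 CD34 UMIs and 6 of the 18 RASGRP3 UMIs. In blastoid 4, 6 such cells of clusters 3 and 4 had 5, 2, 1, 2, 0 and 0 UMIs of CD34. LMO2 did not differ beyond its spread (-0.18, SE 0.61, adjusted p = 0.829), and 26 of its 62 UMIs in blastoid 3 and 0 of those in blastoid 4 lay in clusters 6 and 9. In blastoid 3, 2 cells of cluster 6 held 24 of those 26 UMIs. The comparison was not repeated without these 2 cells, so the result for LMO2 rests largely on them. HHEX, CD34 and ESAM had too few UMIs for the test. Of the 6 genes tested 5 passed as higher, beside 52.4% of all genes called (25.6% higher and 26.8% lower). DESeq2 called 3, without CALCRL (adjusted p = 0.163) and RASGRP3 (adjusted p = 0.0730).

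Within clusters 3, 4, 11 and 12, KDR and TMEM88 ran in different orders. KDR was at 274 and 385 CPM in cluster 12, whose leading genes include POSTN, DCN and COL3A1, and at 86.3 and 52.4 CPM in cluster 4. TMEM88 was at 131 and 161 CPM in cluster 12 and at 477 and 769 CPM in cluster 3. The order was the same in both blastoid samples. Cluster 10, with 118 and 121 cells and TMPRSS11E, HPGD and C9orf135 as its first leading genes, had KDR in 55.9% and 47.9% of its cells but TMEM88 in 22.0% and 14.9%. It detected 12 of 14 pluripotency markers and 15 of 21 of mesoderm and mesenchyme, and NODAL, MIXL1 and MESP1, genes of the primitive streak, were also among its 10 leading genes. In blastoid 4, LMO2, HHEX, CD34, ESAM and RASGRP3 were higher in cluster 10 than in clusters 3, 4, 6, 9, 11 and 12. They were at 10.9, 8.94, 4.47, 3.83 and 6.38 CPM there, against 5.47, 3.80, 3.09, 2.85 and 2.85 CPM in cluster 3. In blastoid 3 they were at 2.68, 1.78, 0, 0 and 3.57 CPM in cluster 10. Of the 14 cells with 5 or more of the 9 genes, 4 lay in cluster 10 of blastoid 4 and 0 in cluster 10 of blastoid 3. ESAM had 2, 1, 1 and 2 UMIs in these 4 cells and CD34 had 3, 0, 4 and 0. All 122 blastoid 4 cells classed by pluripotency markers held 6 and 7 UMIs of these 2 genes. The higher levels in cluster 10 thus follow in part from cells chosen by the same genes.

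**Figure D2:**
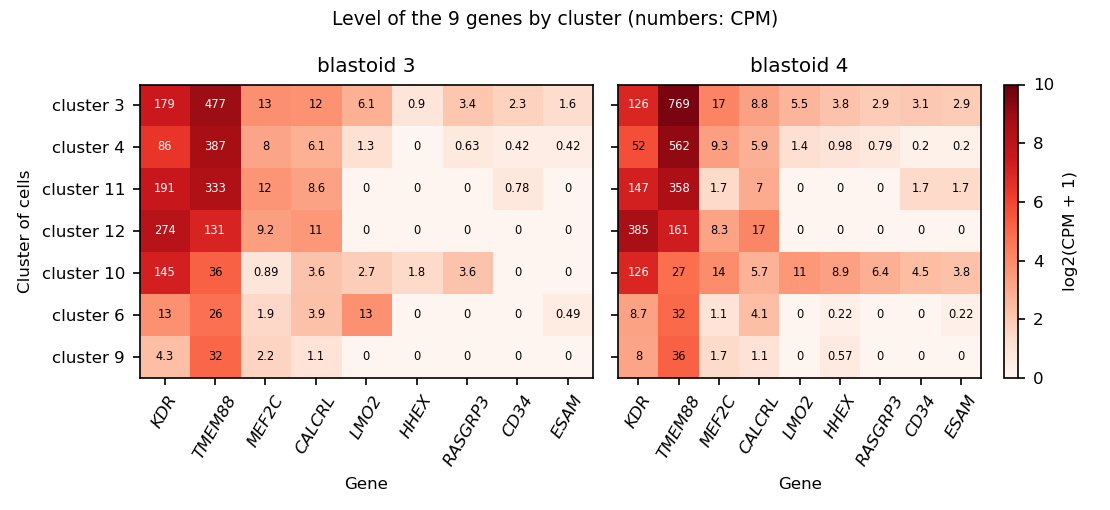
Level of the 9 genes (colour, log2 of CPM + 1; numbers, CPM) in 7 clusters of blastoid 3 and blastoid 4 cells, with a line per cluster. KDR is highest in cluster 12, at 274 and 385 CPM, TMEM88 in cluster 3, at 477 and 769 CPM, and LMO2 in blastoid 3 is highest in cluster 6, at 12.6 CPM. In that cluster 2 cells hold 24 of the LMO2 UMIs of blastoid 3.

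At least 1 of the 9 genes had a UMI in 2899 of 4240 blastoid cells and in 1305 of 5440 hESC cells. At least 3 had one in 76 cells of blastoid 3 (3.32%, exact Clopper-Pearson 95% interval 2.62 to 4.14%) and in 73 of blastoid 4 (3.74%, 2.94 to 4.68%), and in 2 hESC cells, both of hESC 2. The blastoid share was 3.53% ± 0.298 (SD, n = 2). After thinning, 13 cells in each blastoid sample (0.596% and 0.681%) and 0 hESC cells held 3 or more. Cells with 3 or more had a median of 6874.5 and 10495 UMIs, against 6203 and 8794.5 in the other blastoid cells. Intervals cover counting error only.

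The cut at 3 genes runs through a range of values. Exactly 2 of the genes were in 864 blastoid cells, exactly 3 in 122, exactly 4 in 13 and 5 or more in 14. Of the 122 cells with exactly 3, 109 held both KDR and TMEM88, and the remaining gene was CALCRL in 45 of these and MEF2C in 39. In these 122 cells the median number of the 22 other endothelial markers was 1 per cell, and their summed level was 177 and 188 CPM, against 109 and 111 CPM in cells with fewer than 3. The mesoderm and mesenchyme markers had a median of 5939 and 6779 CPM per cell in the 122 cells, against 4240 and 3778 CPM in cells with fewer than 3. Those of trophectoderm and amnion had 1606 and 1497 CPM against 1799 and 2863 CPM, and the 7 pericyte and smooth muscle markers had 559 and 690 CPM against 235 and 202 CPM. RGS5 was in 84.4% of the 122 cells and in 52.1% of cells with fewer, and over all cells with 3 or more these markers summed to 716 and 726 CPM against 414 and 383 CPM. The part of these markers in the co-detection was not tested. Clusters 3, 4, 11 and 12 held 72 and 62 of the cells with 3 or more genes. Scrublet had called 1 and 2 of the cells with 3 or more.

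**Figure D3:**
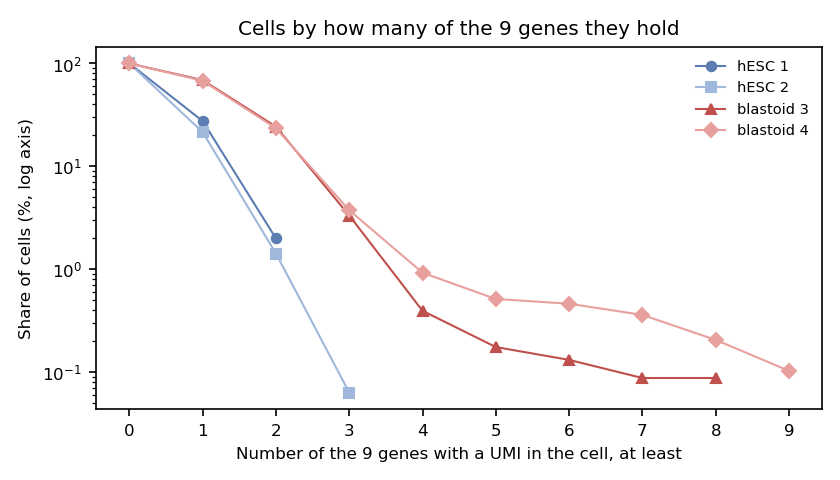
Share of cells (percent, log axis) that hold at least the given number of the 9 genes, with 1 line per sample. The blastoid lines pass 3.32% and 3.74% at 3 genes and run on to 9 and 18 cells with at least 4 genes, while no hESC cell holds more than 3.

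Pairs of the rarer genes stood furthest above the product of their shares. The ratio cannot exceed the inverse of the commoner gene's share, so pairs with a widely found gene cannot reach high values. KDR was in 14 of the 18 blastoid cells with CD34, yet this pair stood at 2.88 times. The order of the pairs thus follows in part from how widely the genes were found. For the 10 pairs among LMO2, HHEX, CD34, ESAM and RASGRP3, a set named after the values had been seen, 5 to 11 blastoid cells held both genes. That was 22.0 to 84.5 times the product of their shares, with a median of 41.6 times. CD34 and ESAM were found together in 8 cells, where the product of their shares is 0.0947 cells. For the other 26 pairs the ratio ran from 1.00 to 11.3, with a median of 2.48. KDR and TMEM88, the most widely found pair, were together in 779 cells against a product of 671 (1.16 times). TMEM88 with RASGRP3 or LMO2 stood at 1.00 and 1.02 times. MEF2C and RASGRP3 were together in 15 cells against 1.54 (9.76 times), and MEF2C and ESAM in 11 against 1.05 (10.5 times). After thinning, 1 to 4 cells held both genes of each of the 10 pairs, at 47.4 to 156 times the product, with a median of 72.6. The other 26 pairs then ran from 0.36 to 36.1 times, with a median of 5.08 and 1 to 223 cells with both genes, so several ratios moved far. MEF2C with ESAM, HHEX and RASGRP3 went to 36.1, 35.4 and 35.0 times on 5 or 6 cells each, LMO2 and TMEM88 fell to 0.36 on 3 cells, and KDR and TMEM88 stood at 1.06 times. These are descriptions with no test, and the cells share their libraries.

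**Figure D4:**
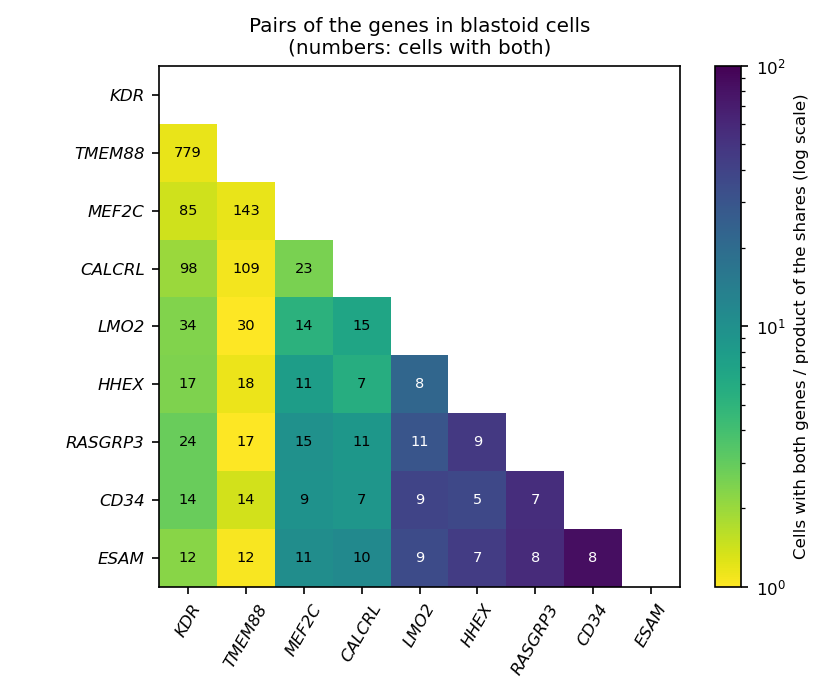
Number of blastoid cells that hold both genes of a pair (numbers) and its ratio to the product of the genes' shares in each sample (colour, log scale). The 10 pairs among the 5 rarer genes stand at 22.0 to 84.5 times, and the pairs with TMEM88 at 1.00 to 1.36 times. A pair with a widely found gene such as TMEM88 cannot reach a high ratio.

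The 14 cells with 5 or more of the genes, a cut chosen after the values had been seen, were 4 cells of blastoid 3 and 10 of blastoid 4. Because the 9 genes chose the cells, high detection and levels of these genes in them follow from the choice and support nothing. KDR and MEF2C were in 14 of 14, LMO2 in 12, ESAM, CALCRL and RASGRP3 in 11, CD34 and HHEX in 9 and TMEM88 in 8. In blastoid 3 and 4 these cells had KDR at 1276 and 1313 CPM, against 117 and 62.6 CPM in the rest. They held 69.2% and 77.3% of all CD34 UMIs, 60% and 76.2% of ESAM and 27.3% and 73.1% of RASGRP3. HHEX had 24 of its 37 UMIs of blastoid 4 in them (64.9%), but 1 of its 6 in blastoid 3. TMEM88 went the other way, at 69.0 and 93.8 CPM against 302 and 366 CPM in the rest. The cells held 4746 to 15069 UMIs each, with a median of 10529.5, none was called a doublet, and 9 lay in cluster 3, 4 in cluster 10 and 1 in cluster 4.

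Genes that had no part in the choice were also found in these 14 cells. Each held 7 to 14 of 22 other endothelial markers, with a median of 11. The other cells of blastoid 3 and 4 held a median of 0 and 1. EGFL7, an endothelial secreted factor, was in 14 of 14, the VEGF receptor FLT1 in 13, ERG in 12 and FLI1 in 11. EGFL7 and FLT1 were also in 28.7% and 16.8% of the other blastoid cells, against 0.260% for ERG and 1.30% for FLI1. ICAM2 had 15 of its 17 blastoid UMIs in the 14 cells, and PECAM1, SOX17 and TAL1 each had 12 of 16. ERG, whose level was lower in blastoids than in hESC, had 16 of its 30 blastoid UMIs there. CLDN5 and VWF, markers of more mature endothelium, were at 0, and 0 of 14 cells allows up to 21.4% of such cells to have a UMI. Of the blood genes, LYL1 and GATA2 were each in 5 of the 14 cells, against 1.11% and 9.23% of the rest, and KLF1 and ITGA2B in 1 each. PTPRC, HBZ, HBA2, SPN, RUNX1, KIT and MYB had 0 UMIs there, but were in at most 4.69% of the rest, so that 14 cells cannot show a difference. HAND1 was in 2 of the 14 cells and in 88.6% of the rest.

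The summed level of the endothelial markers in the 14 cells was 2931 and 2841 CPM in blastoid 3 and 4, against 111 and 116 CPM in the rest. The 7 pericyte and smooth muscle markers were at 1483 and 1022 CPM against 423 and 394 CPM, and RGS5 was in 13 of the 14. The mesoderm and mesenchyme markers were at 3656 and 2747 CPM, against 5551 and 4434 CPM. The trophectoderm and amnion markers were at 552 and 666 CPM against 2758 and 4207 CPM. The blood markers were at 138 and 122 CPM against 89.4 and 141 CPM, with 1 and 3 of 12 counted genes found. Most of this was CD74, with 15 UMIs in the 14 cells, against 1 each of KLF1 and ITGA2B. CD74 was in 7 of the 14 cells and in 41.6% of the rest. The pluripotency markers were at 414 and 375 CPM against 856 and 818 CPM. The hypoblast list was at 483 and 150 CPM against 20.1 and 11.9 CPM, with 2 and 3 of 12 counted genes found. It shares SOX17 with the endothelial list, but SOX17 alone was at 172 and 65.6 CPM in the 14 cells. Other genes of the hypoblast list thus gave the larger part. The part of these other cell type markers in the result was not tested.

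**Figure D5:**
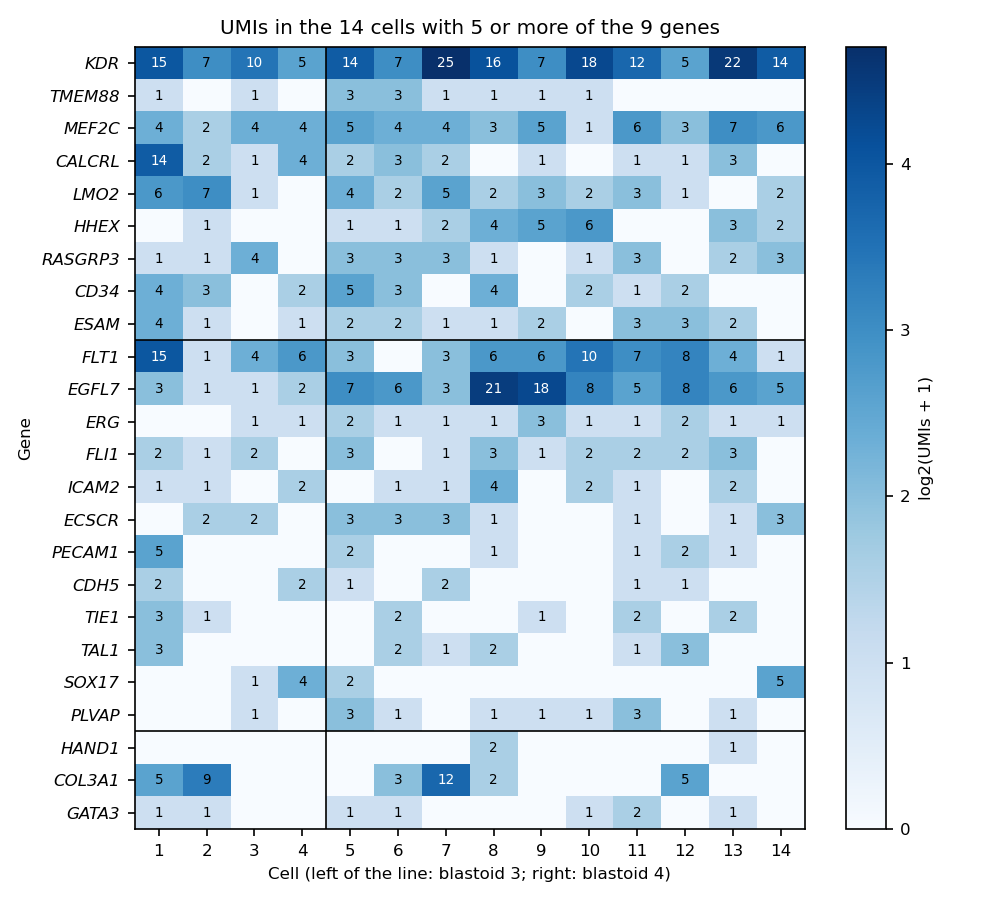
UMIs of the 9 genes, of 12 endothelial and early blood genes and of HAND1, COL3A1 and GATA3 in each of the 14 cells with 5 or more of the 9 genes (colour, log2 of UMIs + 1; numbers, UMIs), with cells 1 to 4 from blastoid 3 and 5 to 14 from blastoid 4. KDR and MEF2C fill every column, TMEM88 stops at 3 UMIs, PECAM1 and CDH5 are each in 6 cells and HAND1 is in 2.

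The other genes were tested between the blastoid cells with 3 or more of the 9 genes and the remaining blastoid cells, with the 9 genes left out and the sample as a block in edgeR. Of 14784 genes 684 passed (4.63%), 311 of them higher (2.1%) and 373 lower (2.52%). The calls depended on the fit, as DESeq2 made 144 and edgeR without the sample block 13. The 10 largest rises among well-counted genes were the cadherin CDH13, the phosphatase PTPRE, INKA1, TEK, ITGA8, GNG11, NRP2, SOX7, FLT1 and the homeobox gene HLX, at log2 fold changes of 2.02 to 2.56. FLT1 rose from 38.5 and 20.3 CPM to 120 and 117 CPM (2.02, SE 0.17, adjusted p = 3.60e-17), and NRP2, a co-receptor for VEGF, from 42.6 and 28.1 CPM to 108 and 196 CPM (2.11, SE 0.17, adjusted p = 1.75e-18). TEK rose from 6.08 and 4.66 CPM to 25.8 and 28.6 CPM, and GNG11, a G protein subunit, from 24.0 and 13.5 CPM to 61.8 and 109 CPM. By the rule that chose them, all 10 were above the rest in both samples. Without the sample block their fold changes were 1.97 to 2.48, but ITGA8 alone passed (adjusted p = 0.0292), with FLT1, NRP2, TEK and PTPRE at 0.0515, GNG11 at 0.0575 and SOX7 at 0.310. DESeq2 called all 10, and with a cut at 2 genes PTPRE (0.23, adjusted p = 0.639) and SOX7 (-0.25, adjusted p = 0.506) did not pass.

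The 14 cells with 5 or more genes carried much of these rises. Most of the UMIs that the 149 cells held lay in those 14 for 6 of the 10 genes, namely CDH13 (27 of 36), PTPRE (29 of 42), HLX (24 of 35), SOX7 (37 of 57), NRP2 (117 of 214) and GNG11 (63 of 120). SOX7 was in 2.46% of the 122 cells with exactly 3 genes, below its 5.11% in cells with fewer, and 53 of its 57 UMIs lay in the 27 cells with 4 or more. The other 9 genes were in a larger share of the 122 cells than of cells with fewer, such as FLT1 in 35.2% against 16.1% and TEK in 14.8% against 3.57%.

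The 5 largest falls were PRR15, TINCR, KRT23, HSPB8 and CRB3, among them the epithelial keratin KRT23 and the polarity gene CRB3. They had 0 UMIs in the cells with 3 or more genes. Against a floor of 3 UMIs over both samples, they were at least 8.15-, 5.15-, 4.20-, 4.11- and 3.36-fold lower. None of these 5 was called by DESeq2 or among cells with 5 or more genes. KRT23 is also a marker of trophectoderm and amnion, whose clusters held 4 of the 149 cells.

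By list, 12 of 17 tested endothelial surface genes passed as higher and 1 as lower in the cells with 3 or more genes, with a median of 2.30 against -0.03 over all genes. ICAM2, PECAM1, SOX17 and TAL1 were at most at 0.137 CPM in the rest. They passed the count filter only through the cells where they are high, and were too sparse for the test against hESC. Rare genes absent from these cells were not tested, so the counts and the median by list follow in part from the filter. ECSCR, a surface protein of endothelial cells, rose by 6.36. ICAM2 had 15 UMIs in these cells and 2 in the rest, a ratio of levels of 178 (exact 95% counting interval 41.3 to 1600), and PECAM1 had 13 against 3 (103, 28.2 to 561). These rises rest on few cells, as all 15 ICAM2 UMIs and 12 of the 13 PECAM1 UMIs in the 149 cells came from the 14 cells with 5 or more. Of 11 ETS, SOX and MEF2 factors 7 rose, among them ERG (4.79), FLI1 (3.99) and SOX17, with 13 UMIs against 3. ETV2, the factor that starts the endothelial programme, had 0 and 21 UMIs in the cells of blastoid 3 and 4. TAL1, the partner of LMO2, had 14 UMIs against 2 (166, 38.1 to 1503) and LYL1 rose by 2.96. RAMP2, lower in blastoids than in hESC as a whole, rose by 2.01 in these cells and RAMP1 fell by 1.96. Of 3 tested blood genes and 12 cardiac mesoderm genes, 0 passed by edgeR or DESeq2, with 2 of each list at an unadjusted p under 0.05.

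With a cut at 5 genes, 252 of 13970 genes passed (1.8%), 0.895% of all genes as higher and 0.909% as lower, and 169 were also among the 684, which is 67.1% of the 252 and 24.7% of the 684. RAMP2 rose by 4.41 (adjusted p = 1.88e-11), NRP2 by 4.32, SOX7 by 4.36 and FLT1 by 4.04. Among genes outside the lists, JAG1, a Notch ligand, rose by 3.57 and HAPLN1, which links hyaluronan in the matrix, rose from 224 and 266 CPM to 3380 and 3188 CPM (3.36, SE 0.32, adjusted p = 3.91e-22). Of the 12 cardiac mesoderm genes 0 passed as higher in edgeR, also at an unadjusted p under 0.05, and 2 as lower. HAND1 was at 0 and 28.1 CPM against 710 and 814 CPM, and HAND2 at 0 and 28.1 CPM against 204 and 92.9 CPM, with 3 UMIs of each in the 14 cells. IGFBP3, STMN2, CXCL14, POSTN and CDH1 had 0 UMIs in the 14 cells.

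Other genes were also ranked by the ratio of their share in cells with 3 or more of the 9 genes to their share in the other blastoid cells. The ranks were taken from 3887 genes found in at least 25% of the cells with 3 or more in both blastoid samples. That filter looked only at the chosen cells, which were also deeper than the others, so the ratios are a description. ITGA8, an integrin subunit, was in 30.3% and 32.9% of these cells and in 8.13% and 9.05% of the others, a ratio of at least 3.63. ITPRIPL2 (2.59), BMERB1 (2.57), DUSP6 (2.26), which switches off ERK, and ZEB1 (2.18) followed, by the lower ratio of the 2 samples. FLT1 came after these (2.12), found in 36.8% and 47.9% of the cells against 17.4% and 14.5%. EGFL7 was in 47.0% of the 149 cells and in 28.2% of the others, whereas PECAM1, in 4.70% of them, is below the 25%.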

How the data were processed

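RNA was measured in single cells of 2 hESC and 2 blastoid samples. The authors deposited their raw counts, as UMIs of each gene symbol and barcode, in a table for each library, and per the submitters' processing notes used Cell Ranger and GRCh38; the versions and annotation are not given in the sources used here. Positions are from GENCODE v29. The highest mitochondrial share of a cell was 20.0% in every sample, and 7 and 13 genes of the hESC tables were in a single barcode.

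The 9 genes, the 8 lists and the markers were chosen with earlier results of these data known. Cells had at least 500 genes, with no other filter. Doublets were called with Scrublet in scanpy 1.11.5 (expected rate 6%) and kept, with their removal as an alternative. UMIs were summed per sample and set of cells and tested with edgeR 4.0.16 (R 4.3.3, TMM, filterByExpr, quasi-likelihood, Benjamini-Hochberg over all genes tested, adjusted p under 0.05). SE is the log2 fold change over the root of F. DESeq2 1.42.0 was an alternative. A gene with 0 UMIs in a set gets no fitted fold, and a floor of 3 UMIs was used. Clustering used 2000 variable genes without the 9 and the lists, 30 components, 15 neighbours and Leiden resolution 0.5 (leidenalg 0.10.2). A cluster was scored by markers found in at least 10% of its cells. With 2 samples against 2 an exact permutation test cannot go below p = 0.33, so shares were not tested. Scripts were tested on simulated data.

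Named are the 9 genes, up to 4 genes per list with the largest change among those called, defining blood genes near 0, and the 10 largest rises and 5 largest falls among called genes with at least 10 UMIs in each sample of the higher set and one direction in both samples. For likeness, the 5 genes with the highest ratio of shares are named. Cells with 5 or more of the genes, the group of 5 rarer genes and the cells rich in LMO2 were chosen after the data had been seen, as were CYB5D1 and the genes named for the cut at 5.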

Additional observations from a re-analysis of the deposited data

Results flagged for a closer look

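Barcodes with fewer than 500 genes are outside the comparisons, yet some held UMIs of the 9 genes. At least 1 of the genes was in 130 of 1198 such barcodes of blastoid 3 (10.9%) and in 11 of 120 of blastoid 4 (9.17%), which is above the 2.15% and 2.18% of hESC 1 and hESC 2. They held a median of 346 and 411.5 UMIs in the blastoids, and none held 3 of the genes. In blastoid 3, 1035 of the 1198 have the barcode of a cell of blastoid 4. The part of those shared barcodes in the shares was not tested.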

How the results depend on the processing

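The count of the 9 genes called in blastoids against hESC was 6, ran from 4 to 8 over 10 alternatives, and was 4 to 7 when 1 sample was left out. The count of list genes called was 48 and ran from 39 to 58. ESAM was filtered out with at least 1000 genes a cell and without blastoid 4. HHEX ran from -2.47 without blastoid 4 to 0.015, reversed, without blastoid 3. Without the 2 cells richest in LMO2, an alternative added after the data had been seen, LMO2 was at 0.62 (adjusted p = 0.187) instead of 0.99. Library sizes without TMM moved the median of all genes from 0.05 to 0.19, and no gene of the 9 changed direction. Between clusters 3, 4, 11 and 12 and clusters 6 and 9, DESeq2 called 3 genes instead of 5, and LMO2 reversed to 2.35 with DESeq2, 0.051 with Leiden resolution 1 and 0.14 with 15 components. For cells with 3 or more genes, the 684 calls became 144 with DESeq2, 13 without the sample block, 2696 with a cut at 2 genes, 285 at 4, 252 at 5 and 306 for at least 2 of the 5 rarer genes. SOX7 reversed to -0.25 with the cut at 2. The share of blastoid cells with any of the 9 genes was 68.3%, and was 47.1% after thinning, 69.9% with at least 1000 genes and 50.5% when 2 UMIs were asked for. The share with 3 or more was 3.53%, and was 0.639% after thinning, 0.515% when 2 UMIs were asked for, 23.9% with at least 2 genes, 0.658% with at least 4 and 0.344% with at least 5. The cause of these differences was not tested. No paired analysis was possible because the hESC and blastoid samples share no replicate number. Depth limits the 5 rarer genes, which had 31 to 109 UMIs over all blastoid cells, so a cell without a UMI may still hold their RNA.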

Other observations

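The 2 blastoid 3 cells with the most LMO2, 15 and 9 UMIs, lay in cluster 6 and held none of the other 8 genes. They held the trophoblast hormone gene CGA at 50 and 260 UMIs, the aromatase CYP19A1 at 56 and 132 UMIs and the fusogen ERVW-1 at 9 and 33 UMIs, with 0 UMIs of PECAM1 and ERG. Only 3 cells of blastoid 3 and 0 of blastoid 4 held CGA, CYP19A1 and ERVW-1 together, and 2 of the 3 held LMO2. These cells and genes were picked after the values had been seen, and LMO2 in cells with 5 or more of the 9 genes made up 22.6% and 51.1% of its UMIs in blastoid 3 and 4.

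CYB5D1, the gene after TMEM88 on the same strand of chromosome 17, begins 1646 bases past its end. Its level was 7.19 and 6.79 CPM in hESC and 97.2 and 89.9 CPM in blastoids. In clusters 3, 4, 11 and 12 it was at 131 and 153 CPM, and in clusters 6 and 9 at 4.35 and 8.19 CPM, and it overlaps NAA38 on the opposite strand. Whether reads of one gene were counted for the other was not tested. CYB5D1 was picked after its values had been seen.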
